A study of Mus musculus with 6 samples.

Results

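Solute carrier (Slc) genes encode membrane transporters, and the regions that carried their names in a survey of captured methylated DNA from the mouse heart are described here. Members were the regions whose gene symbol had the form Slc, a family number, the letter a and a gene number. Slc8a1, Slc2a1, Slc2a4 and Slc16a3 were left out. The rule gave 1417 distinct regions of 285 genes in 45 families, out of 213957 regions in the whole table. DNA came from ventricles of male C57BL/6 mice at postnatal day 1 (P1) and day 14 (P14), with 3 libraries per age and no treatment or genetic change in either group. The labels name the left ventricle as the tissue, while the protocol describes ventricles with the septum intact and the atria removed. The whole tissue was used, so muscle, vessel, connective tissue and blood cells were not separated. Nothing says whether a library came from 1 animal or from a pool, and p-values measure the spread between these libraries.

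Methyl-CpG binding domain sequencing (MBD-seq) captures sheared DNA through a protein domain that binds methylated CpG sites and counts the captured fragments. Read density therefore depends on both methylation and the number of CpGs, and it gives no methylation level per site. Solute carriers move ions, sugars, amino acids, metals, nucleosides and metabolites across the plasma membrane and the membranes of organelles. In the heart they set intracellular sodium, calcium and pH, take up fuel, amino acids and taurine, and exchange ADP, ATP and other metabolites across the inner mitochondrial membrane. Numbered families share sequence and often a substrate class.

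Few Slc promoters lay in captured DNA. RefSeq promoter windows, from 250 bases before to 50 bases after a gene start in GRCm38.p6, were at hand for 215 of the 285 genes. Of their 283 windows, 28 (9.89%) overlapped a peak, a short region in which reads were enriched, compared with 7.58% of all 32851 windows. CpG-poor windows held most of them. The motif CG, which reads the same on both strands, occurred at least once in 98.9% of the Slc windows and in 94.6% of all windows. The median number of CG was 7 in Slc windows under a peak and 14 in the others. Among windows with fewer than 10 CG, 23 of 116 Slc windows (19.8%) overlapped a peak, and 10.2% of all such windows did. Among windows with 10 or more CG, 5 of 167 (2.99%) did, and 4.23% of all such windows. The 5 belonged to Slc25a31, Slc6a9, Slc30a3, Slc5a1 and Slc15a4. The Slc6a9 window among them (chr4:117849100-117849399, 14 CG) is not the Slc6a9 window printed below, which has 8 CG.

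The 250 bases before the start are shown for 6 genes with a tested peak over the window, to let the CpG content be seen beside the captured reads. CG is in capitals, and each sequence runs 5′ to 3′ in the direction of the gene (RefSeq, GRCm38.p6). Slc11a1 was taken by the rule for named peaks, and the others were added after their values were seen, for the largest changes in either direction among peaks over a window.
Slc25a31, chr3:40708621-40708870, plus strand: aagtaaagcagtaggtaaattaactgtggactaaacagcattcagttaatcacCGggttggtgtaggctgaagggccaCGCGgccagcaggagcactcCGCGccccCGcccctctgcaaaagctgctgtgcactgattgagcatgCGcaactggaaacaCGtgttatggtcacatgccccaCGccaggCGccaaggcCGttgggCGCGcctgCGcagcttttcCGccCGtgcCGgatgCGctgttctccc
Slc6a9, chr4:117855297-117855546, plus strand: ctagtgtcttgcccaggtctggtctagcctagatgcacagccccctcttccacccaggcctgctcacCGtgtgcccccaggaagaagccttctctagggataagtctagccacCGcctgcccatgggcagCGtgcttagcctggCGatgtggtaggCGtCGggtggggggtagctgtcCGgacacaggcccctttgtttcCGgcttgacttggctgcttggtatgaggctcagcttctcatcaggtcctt
Slc11a1, chr1:74374953-74375202, plus strand: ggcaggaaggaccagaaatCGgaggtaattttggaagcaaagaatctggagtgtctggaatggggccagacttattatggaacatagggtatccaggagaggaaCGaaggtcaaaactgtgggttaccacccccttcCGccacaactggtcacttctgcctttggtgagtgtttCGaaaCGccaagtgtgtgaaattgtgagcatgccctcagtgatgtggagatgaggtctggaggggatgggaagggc
Slc44a2, chr9:21337578-21337827, plus strand: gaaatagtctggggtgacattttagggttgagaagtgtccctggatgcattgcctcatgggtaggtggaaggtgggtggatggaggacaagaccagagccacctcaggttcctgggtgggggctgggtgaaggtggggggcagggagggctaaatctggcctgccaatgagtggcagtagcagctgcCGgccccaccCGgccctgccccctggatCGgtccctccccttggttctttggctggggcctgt
Slc6a17, chr3:107500741-107500990, minus strand: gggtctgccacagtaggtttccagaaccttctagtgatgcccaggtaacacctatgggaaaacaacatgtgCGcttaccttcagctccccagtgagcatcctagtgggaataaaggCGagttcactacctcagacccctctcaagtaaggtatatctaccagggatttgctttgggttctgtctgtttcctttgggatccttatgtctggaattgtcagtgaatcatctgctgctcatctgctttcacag
Slc22a13, chr9:119209106-119209355, minus strand: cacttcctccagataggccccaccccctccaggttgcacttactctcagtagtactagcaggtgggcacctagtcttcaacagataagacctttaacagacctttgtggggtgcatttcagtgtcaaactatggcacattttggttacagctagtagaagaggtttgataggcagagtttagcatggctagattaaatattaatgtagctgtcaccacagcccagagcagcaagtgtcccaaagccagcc

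Slc25a31, the ADP/ATP carrier of male germ cells, stood out among them for its CpG content, with 18 CG in the bases shown and 22 in its whole window. Its promoter is known to be methylated in body tissues. The peak over it held 39, 35 and 36 reads in P1 replicates 1 to 3 and 251, 108 and 56 in the corresponding P14 libraries. In CPM (reads scaled to library size within peaks with the TMM factors of edgeR), every P14 library was above every P1 library. The log2 change was 0.69 (SE 0.26) and did not pass (edgeR's quasi-likelihood test, adjusted p = 0.261). At Slc44a2, a choline transporter gene with 3 CG in the bases shown, the peak held 5, 7 and 8 reads in P1 libraries and 58, 21 and 15 in P14 libraries. Its P14 values were also above P1, with a log2 change of 1.02 (SE 0.45, adjusted p = 0.531). At Slc11a1, the metal transporter of macrophage phagosomes, the peak held 27, 19 and 20 reads and then 52, 31 and 18, which in CPM was lower in all 3 P14 libraries (log2 change -0.53, SE 0.32, adjusted p = 0.992). The peak at Slc22a13, an organic anion transporter gene, is also named for Slc22a14 and had no CG in the bases shown. It held 15, 5 and 7 P1 reads and 21, 8 and 9 P14 reads. Relative to other peaks it fell, with a log2 change of -0.66, the lowest of the tested Slc peaks over a window. None of the 26 tested Slc peaks over a promoter window passed, where 1.34% of the 1190 tested gene-named peaks over one did. Their median log2 change was 0.06, and that of the 1190 was 0.08.

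Most Slc regions lay inside genes. By RefSeq spans, 1320 of the 1417 lay within the gene they are named for and outside its promoter windows, 26 overlapped such a window, and 71 lay outside the span. Peaks could not be placed in exons or introns with the annotation used here. A further 161 of the 1417 also carried the name of another gene, and their reads belong to both. Genes held a median of 3 peaks, 49 had a single one and 35 had 10 or more. Slc39a11, a zinc transporter gene, had the most, with 81. After the filter on low counts, 1372 regions of 281 genes were tested. The 45 that were left out averaged at most 16.2 reads per library.

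Libraries differed in how strongly peaks stood out, and this touches every value below. Totals ranged from 16284216 to 21512072 reads, and peaks held 11.6% to 13.4% of them at P1 and 17% to 31.3% at P14, highest in P14 replicate 1. Per base, the median tested Slc peak held 2.29 to 2.93 times the reads of the stretches between peaks in the P1 libraries. The P14 values were 10.0, 4.70 and 4.20 times in replicates 1 to 3. Changes were therefore read in a fit within peaks, relative to other peaks, and beside it in a fit over all regions of the table. Their part in the results was looked at by leaving out libraries and with the share of reads in peaks as a covariate. Every P14 library had a larger share than every P1 library, so the covariate fit separates age from share poorly. It called 0 of all 96773 tested peaks, and a change lost in it cannot be assigned to either.

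Slc peaks took a slightly larger part of the reads in peaks at P14. Their share was 1.26%, 1.30% and 1.29% in P1 replicates 1 to 3 and 1.58%, 1.42% and 1.35% in P14 replicates 1 to 3. The ages did not overlap, with means of 1.28% ± 0.0193 and 1.45% ± 0.117 (SD, n = 3) and a difference of 0.165 percentage points. The exact permutation test, two-sided, gave p = 0.1, the smallest that 3 libraries against 3 allow. P14 replicate 1 was the highest both here and in the share of all reads in peaks, and without it the difference was 0.0996. In whole tissue, a change in the mix of cells and a change within cells cannot be told apart. Gene-named regions as a whole also held a larger part of the reads in peaks in every P14 library than in any P1 library. Set against reads in gene-named regions, the Slc shares were 1.96% ± 0.031 and 2.04% ± 0.0265 (SD, n = 3, exact permutation p = 0.1). That difference was 0.0748 percentage points, so part of the rise was common to gene-named peaks.

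**Figure D1:**
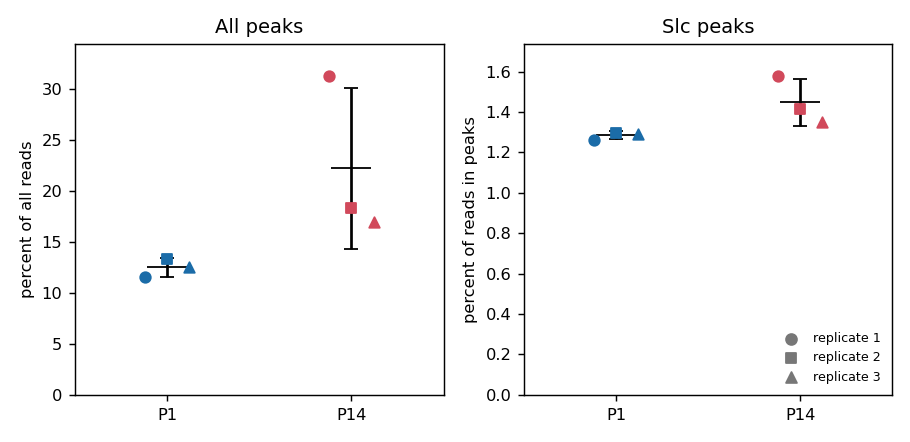
Reads in peaks by library. The left panel shows peaks as a percent of all reads and the right panel Slc peaks as a percent of reads in peaks, with 1 point per library and the mean ± SD of 3 in black. P14 replicate 1 is highest in both panels, at 31.3% and 1.58%.

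Within peaks, 17 of the 1372 tested Slc peaks passed an adjusted p of 0.05 (1.24%), against 2.56% of all 96773 tested peaks. Of these, 2 were higher at P14 (0.146%, against 0.104% of all peaks) and 15 lower (1.09%, against 2.46%). All Slc peaks carry a gene name, and of the 66050 tested peaks with one, 93 were higher and 1425 lower (2.30% in either direction). The Slc share of lower calls was thus below that of peaks at large, and no test of that difference was made. The median log2 change was 0.04 for Slc peaks, with quartiles of -0.17 and 0.28, and -0.01 for all peaks, with quartiles of -0.22 and 0.24. CPM values of the ages did not overlap in 76 Slc peaks higher at P14 (5.54%, against 4.72% of all peaks) and 70 lower (5.1%, against 7.14%). Among peaks with a gene name these were 5.20% and 6.64%. In the fit over all regions 0 Slc peaks passed, as did 0.0% of the 209063 regions. Unadjusted, 484 of the 1372 Slc peaks had a p under 0.05 in that fit, of which 457 were higher at P14. Of all 209063 regions 48109 had one, with peaks and the stretches between them counted together. DESeq2 called 0 Slc peaks there, against 83 of the 148264 regions to which it gave an adjusted p (0.056%). The median log2 change on that scale was 0.78 for Slc peaks and 0.73 for all peaks. No Slc peak passed within peaks when P14 replicate 1 or P14 replicate 2 was left out, or with the share of reads in peaks as a covariate. Nor did any other peak, with 0 called of all 96893, 98845 and 96773 tested peaks in those fits.

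The 2 peaks that rose belong to Slc38a10 and Slc8a2. Slc38a10 encodes a member of the sodium-coupled neutral amino acid transporter family. Its peak on chromosome 11 (120136853 to 120137688), 14081 bp into the gene by RefSeq, contained 5, 4 and 2 P1 reads and 51, 29 and 18 P14 reads. In CPM it went from 1.77 ± 0.831 to 7.04 ± 0.53 (SD, n = 3), with the P14 libraries close together and all above P1. This was 3.98-fold (log2 change 1.99, SE 0.51, edgeR adjusted p = 0.0414). The size held at 2.01 without P14 replicate 1 and at 1.99 with the share of reads in peaks as a covariate, though neither fit called it. DESeq2 did not call it (log2 change 2.02, adjusted p = 0.0624). With 1 library left out it passed only without P1 replicate 1, and the log2 change ran from 1.69 to 2.36. Without both replicates 1 the log2 change was 2.35, and this was the 1 Slc peak that passed.

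Slc8a2 encodes a plasma membrane sodium-calcium exchanger found mainly in the brain. Its peak on chromosome 7 (16144572 to 16145709) held 7, 21 and 12 reads in P1 libraries and 199, 60 and 26 in P14 libraries. Its CPM rose from 6.21 ± 3.01 to 17.6 ± 9.34 (SD, n = 3), 2.89-fold (log2 change 1.53, SE 0.39, edgeR adjusted p = 0.0427), but P14 replicate 3 lay just below P1 replicate 2. Without P14 replicate 1 the log2 change was 1.03, and with the covariate it was 0.51. The other 5 tested peaks of Slc8a2 had log2 changes from -0.01 to 0.75, and none passed. At its relative Slc8a3, the peak with the smallest p held 7, 5 and 3 P1 reads and 37, 23 and 14 P14 reads. Its P14 libraries lay above P1, with a log2 change of 1.16 (SE 0.51, adjusted p = 0.527).

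**Figure D2:**
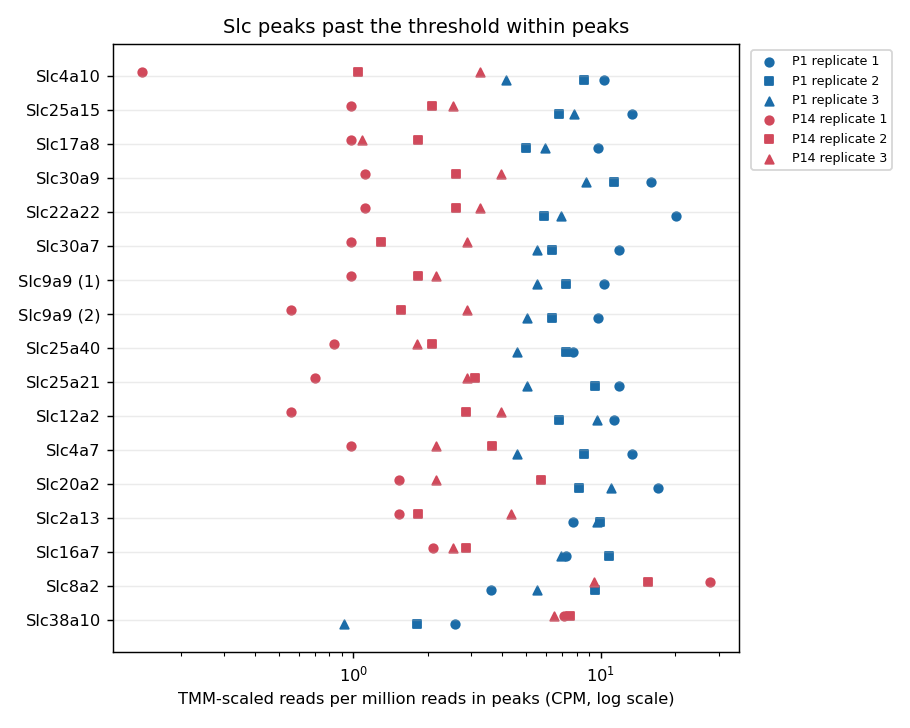
CPM within peaks (log scale) in each library for the 17 Slc peaks that passed, ordered by log2 change, with P1 in blue and P14 in red. In the 15 lower peaks every P1 point lies to the right of every P14 point, and P14 replicate 1 is the lowest P14 point in each. The ages overlap at Slc8a2, and the P14 points of Slc38a10 sit close together.

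The 15 peaks that fell did so 3.37-fold to 6.32-fold, with adjusted p from 0.024 to 0.0486, and in each of them all P14 libraries were below all P1 libraries in CPM. They were narrow, 518 to 1091 bp with a median of 674, and held few reads, at most 39 in a library. No region of the table averaged fewer than 10 reads over the libraries. A peak that averaged fewer than that at P14 was therefore present only through its P1 reads. The median of their mean counts was 18.3 at P1 and 8.33 at P14, while the tested Slc peaks as a whole went from 16 to 36. Per base they held 3.89 times the reads of the stretches between peaks at P1 and 1.88 times at P14 (medians). The 15 were picked for being lower at P14, so these falls and their low P14 values are not separate evidence. P1 replicate 1 was the highest P1 library in 13 of the 15, against 38.2% of all tested Slc peaks. The whole table was alike, with 82.2% of all peaks called lower against 38.1% of all tested peaks. P14 replicate 1 was the lowest P14 library in 15 of 15, against 425 of all 1372. Without P1 replicate 1 the peaks at Slc30a9, Slc2a13 and Slc16a7 still passed. The log2 changes of the 15 then ran from -2.40 to -1.56, and without P14 replicate 1 from -2.14 to -1.42. With the share of reads in peaks as a covariate they ran from -1.87 to -0.42, with Slc12a2 and Slc4a10 the closest to 0 at -0.42 and -0.49. All 15 were also negative in the fit over all regions (-2.01 to -1.04) and when scaled to the reads between peaks (-1.64 to -0.61), where none passed.

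Among ion transporters the peak with the largest fall was at Slc4a10, a sodium-driven bicarbonate transporter gene of neurons. It held 20, 19 and 9 reads in P1 libraries and 1, 4 and 9 in P14 libraries, 6.32-fold lower within peaks (log2 change -2.66, SE 0.70, edgeR adjusted p = 0.0465), and the low count of P14 replicate 1 set much of its size, since the change was -1.86 without that library and -3.86 without P14 replicate 3. Slc4a7, which encodes an electroneutral sodium-bicarbonate cotransporter, had a peak with 26, 19 and 10 P1 reads and 7, 14 and 6 P14 reads (log2 change -2.03). Slc12a2, the gene of the sodium-potassium-chloride cotransporter that loads cells with chloride, had a peak with 22, 15 and 21 reads and then 4, 11 and 11 (log2 change -2.08, SE 0.55, adjusted p = 0.0486, and -1.42 without P14 replicate 1). The second tested peak of Slc12a2 did not pass (log2 change 0.25). Slc9a9, which encodes an endosomal sodium-proton exchanger, had a pair of lower peaks side by side on chromosome 9 (94809592 to 94810234 and 94810464 to 94811103). The first held 20, 16 and 12 reads and then 7, 7 and 6, and the second 19, 14 and 11 and then 4, 6 and 8, with a log2 change of -2.24 that was -1.65 without P14 replicate 1. Such near neighbours share their surroundings and are not separate evidence. The other 17 tested Slc9a9 peaks did not pass.

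Organelle carriers made up a further part of the list. Slc25a15, the mitochondrial ornithine carrier gene of the urea cycle, had a peak 855 bp before its start (chromosome 8, 22399118 to 22399834) with 26, 15 and 17 reads in P1 libraries and 7, 8 and 7 in P14 libraries. CPM fell from 9.34 ± 3.57 to 1.86 ± 0.796 (SD, n = 3), 5.33-fold (log2 change -2.41, SE 0.50, adjusted p = 0.0251). Slc25a40, tied to glutathione import into mitochondria, had a peak with 15, 16 and 10 reads and then 6, 8 and 5. Slc25a21, the oxodicarboxylate carrier gene, had one with 23, 21 and 11 and then 5, 12 and 8, with a log2 change of -2.10 that was -1.50 without P14 replicate 1. Zinc transporters of internal membranes were represented by Slc30a9 and Slc30a7. The Slc30a9 peak (chromosome 5, 67349513 to 67350277) fell from 31, 25 and 19 reads to 8, 10 and 11, 5.14-fold within peaks, and had the smallest adjusted p of the 15 at 0.024. The Slc30a7 peak, named also for Extl2, held 23, 14 and 12 reads and then 7, 5 and 8. Slc17a8, a vesicular glutamate transporter gene, had a peak with 19, 11 and 13 reads and then 7, 7 and 3.

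Of the remaining 4 peaks, the one at Slc22a22, a prostaglandin transporter gene, leaned most on P1 replicate 1. It held 39, 13 and 15 P1 reads and 8, 10 and 9 P14 reads, and its log2 change of -2.33 became -1.56 without that library. Slc20a2, a sodium-phosphate cotransporter gene, had a peak with 33, 18 and 24 reads and then 11, 22 and 6, with a log2 change of -1.98 that was -2.71 without P14 replicate 2. At Slc2a13, the proton-coupled myo-inositol transporter gene, reads went from 15, 22 and 21 to 11, 7 and 12, and the change of -1.94 was -2.05 without P1 replicate 1. At Slc16a7, a monocarboxylate transporter gene, reads went from 14, 24 and 15 to 15, 11 and 7 (log2 change -1.75, SE 0.45, adjusted p = 0.0404).

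These low peaks belonged to a separate group in the distribution of changes. Of the 1372 Slc peaks, 35 had a log2 change below -1.6 and 4 lay between -1.6 and -0.8, while the bulk centred near 0. The same shape was seen over all peaks, with 4150 and 677. The 37 Slc peaks below -1, a limit set after the distribution was seen, were 2.7% of those tested, against 4.77% of all peaks. They belonged to 32 genes, with -2.03 as their median log2 change, and were narrower, at a median of 667 bp against 916 bp in the others. Reads per base relative to the stretches between peaks went from 3.95 to 2.11 times in them and from 2.67 to 6.35 times in the other Slc peaks (medians). P14 replicate 1 was the lowest P14 library in 97.3% of the 37 and in 29.1% of the rest. Over all peaks these were 89.8% and 34.5%. Without that library the median log2 change of the 37 was -1.51. Slc4a7 and Slc9a9 had 3 such peaks each and Slc4a4, a sodium-bicarbonate cotransporter gene, had 2. Every member called lower lay below this limit by its size alone, since each had a log2 change of -1.75 or lower. The 37 were chosen by the change itself, so their fall in reads per base and their low P14 values are not separate evidence.

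**Figure D3:**
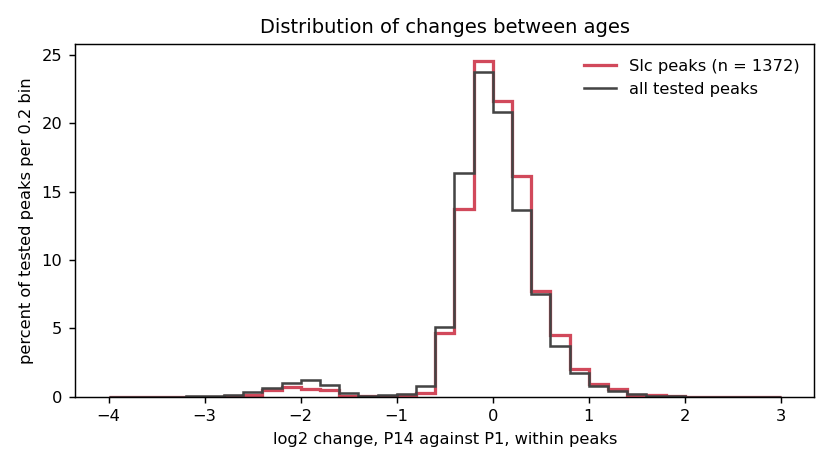
Percent of tested peaks per bin of log2 change within peaks, for the 1372 Slc peaks (red) and all tested peaks (grey). Both have a main body near 0 and a small separate body near -2, which is lower for Slc peaks.

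Some further Slc peaks had ages that did not overlap and did not pass. Among peaks with above-median abundance and no overlap of the ages, the highest log2 changes were at Slc5a10, Slc39a3, Slc6a6, Slc22a23, Slc25a25 and Slc5a3. Slc5a10, a sodium-coupled sugar transporter gene, shares its peak with Fam83g, which held 11, 11 and 6 reads in P1 libraries and 107, 43 and 17 in P14 libraries (log2 change 1.31, SE 0.40, adjusted p = 0.102). Slc39a3, a zinc importer gene, had 30, 42 and 23 reads and then 339, 93 and 59 (log2 change 1.07). Without P14 replicate 1 this became 0.63. Slc6a6, the taurine transporter gene, on which heart muscle relies for its taurine, had 10, 17 and 22 reads and then 128, 46 and 41 (log2 change 0.96, SE 0.31, adjusted p = 0.136). The peak at Slc5a3, a myo-inositol transporter gene, lies also in Mrps6 and had a log2 change of 0.84, with Slc25a25, a calcium-regulated ATP-magnesium/phosphate carrier gene, at 0.85 and Slc22a23 at 0.89. Without P14 replicate 1, Slc25a25 had 0.49.

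In the other direction these were Slc30a4, Slc15a1, a second Slc30a7 peak, Slc28a3, a second Slc38a10 peak and Slc11a1. The Slc30a4 peak, 1586 bp wide at a zinc exporter gene, held 52, 69 and 70 P1 reads and 25, 49 and 59 P14 reads. Its log2 change was -1.39 (SE 0.40, adjusted p = 0.069), which was -0.82 without P14 replicate 1 and -0.03 with the covariate. The remaining 5 lay between -0.61 and -0.53, and without P1 replicate 1 the second Slc38a10 peak had -0.21 and Slc11a1 -0.27. Slc15a1 encodes an intestinal peptide transporter and Slc28a3 a concentrative nucleoside transporter. Their raw reads averaged higher at P14, and their log2 changes were above 0 when scaled to the reads between peaks.

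Transporters with a known role in heart or general cell physiology were mostly without a called peak. Of 22 such genes, 17 had a tested peak. Slc6a8, Slc22a5, Slc25a5, Slc16a1 and Slc30a1, which transport creatine, carnitine, ADP/ATP, lactate and zinc, had none. By the peak with the smallest p, Slc8a2 and Slc12a2 passed, as given above. Slc27a1, a fatty acid transport protein gene, had 44, 45 and 12 reads and then 302, 83 and 64, and the ages overlapped (log2 change 0.87, SE 0.36, adjusted p = 0.409). Its change was 0.47 without P1 replicate 3 and 0.50 without P14 replicate 1. Slc11a2, an iron and manganese importer gene, was higher in every P14 library at 38, 46 and 48 and then 210, 120 and 77 reads (log2 change 0.50, SE 0.22, adjusted p = 0.554). Slc38a2 and Slc1a3, transporters of neutral amino acids and glutamate, were lower in every P14 library by CPM, with log2 changes of -0.40 and -0.46.

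Mitochondrial and membrane carriers of the same list did not pass. Slc25a4, the ADP/ATP carrier gene of heart muscle, had 2, 12 and 6 P1 reads and 32, 20 and 11 P14 reads (log2 change 0.54, SE 0.54), and its change was 0.17 without P1 replicate 1 and 1.24 without P1 replicate 2. Slc25a3, the mitochondrial phosphate carrier gene, had a log2 change of -0.19 (SE 0.43), and Slc25a20, the carnitine-acylcarnitine carrier gene, of -0.18 (SE 0.27). The changes at Slc29a1, a nucleoside transporter gene, Slc3a2, the heavy chain of amino acid transporters, and Slc40a1, the iron exporter gene, were -0.17, -0.05 and -0.12. Slc7a5, the light chain that pairs with Slc3a2, and Slc4a3, an anion exchanger gene of heart muscle, had -0.28 and -0.32. Slc39a14, a zinc and manganese importer gene, had 0.78. All of these had an adjusted p of 0.77 or more, and their standard errors ran from 0.22 to 0.54.

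**Figure D4:**
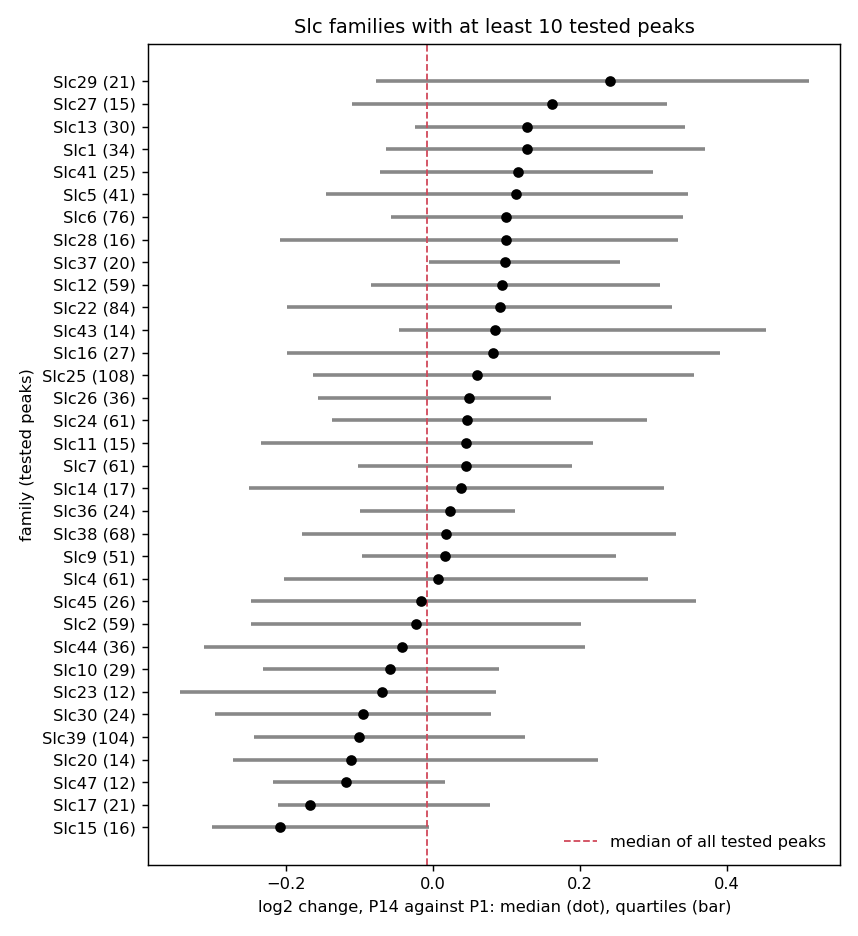
Median (dot) and quartiles (bar) of the log2 change within peaks for the 34 Slc families with at least 10 tested peaks, with the number of peaks in brackets and the median of all tested peaks as a dashed line. Medians lie between -0.21 (Slc15) and 0.24 (Slc29), close to the line beside the length of most bars.

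Families differed little. Of the 34 with at least 10 tested peaks, 23 had a median log2 change above 0, and medians ran from -0.21 in Slc15, proton-coupled peptide transporters (16 peaks of 4 genes), to 0.24 in Slc29, equilibrative nucleoside transporters (21 peaks of 4 genes). The quartiles were -0.30 and -0.01 in Slc15 and -0.08 and 0.51 in Slc29. Without P14 replicate 1 the medians were -0.02 and 0.09. Slc25, the mitochondrial carriers, was the largest by genes, with 37 genes and 108 tested peaks, 3 of them lower and 0 higher, and a median of 0.06. Slc39, zinc importers, had 104 tested peaks, no call and a median of -0.10. The zinc exporters, Slc30, had 24 tested peaks with 2 lower, and a median of -0.10. Slc4, bicarbonate transporters, had 2 lower among 61, and 6 of its peaks lay below -1. Slc9, sodium-proton exchangers, had 2 lower among 51, both in Slc9a9. Slc6, transporters of neurotransmitters, taurine and creatine, had 0 calls among 76 peaks and a median of 0.10. Slc38 held the rise at Slc38a10 among 68.

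By substrate class, amino acid and neurotransmitter transporters had 1 higher call and 0 lower among 284 tested peaks of 52 genes. Mitochondrial carriers had 0 and 3 among 108, metal transporters 0 and 2 among 171, and bicarbonate and anion exchangers 0 and 2 among 97. Exchangers of sodium, calcium and protons had 1 and 2 among 121. Fatty acid transporters (15 peaks), nucleoside and nucleotide sugar transporters (45) and carriers of vitamins, urea, peptides and choline (102) had 0 calls. Median log2 changes of the classes ran from -0.06 for metals to 0.16 for fatty acids. Over each library, metal transporter peaks held 0.196%, 0.199% and 0.207% of reads in peaks at P1 and 0.221%, 0.205% and 0.208% at P14, where P14 replicates 2 and 3 lay within or next to the P1 range. Amino acid transporter peaks held 0.256%, 0.271% and 0.269% and then 0.327%, 0.304% and 0.286%, with no overlap. This gap was not particular to them, since only the metal and phosphate classes had shares that overlapped between ages.

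Genes with many peaks showed how values varied along 1 gene. The 17 peaks of Slc38a10 ran from -0.53 to 1.99, and the called one had neighbours at 0.82 (SE 0.67) and 0.14 (SE 0.37) on its sides. A peak farther into the gene (120129268 to 120130150), with 34, 21 and 23 reads and then 62, 35 and 22, was lower in every P14 library by CPM (log2 change -0.53, SE 0.31). In the Slc38a10 peak farthest from the start, 52, 56 and 58 reads became 367, 139 and 86, with P14 above P1 in CPM (log2 change 0.60, SE 0.24, adjusted p = 0.355).

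**Figure D5:**
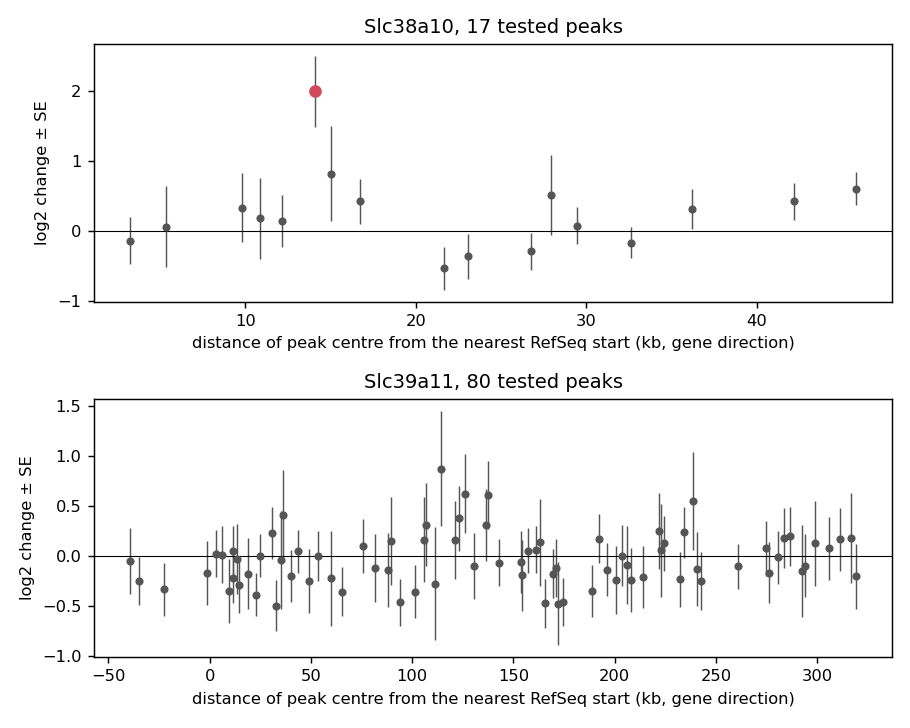
Log2 change within peaks ± SE against the distance of each peak from the nearest RefSeq start of its gene, for Slc38a10 (upper) and Slc39a11 (lower). The called Slc38a10 peak is in red at 1.99, and the peaks of Slc39a11 stay between -0.50 and 0.87 with none called.

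Slc39a11 is a long gene on chromosome 11 whose 81 peaks all lay within its span, and the 80 tested had a median log2 change of -0.07, with quartiles of -0.22 and 0.13. CPM values of the ages did not overlap in 6 of them with lower and 1 with higher values at P14, where 7.14% and 4.72% of all peaks had such gaps. The 6 had log2 changes from -0.47 to -0.21. Slc10a7, named for its likeness to bile acid transporters, had 24 tested peaks with a median of -0.08, and Slc22a14 and Slc9a9 had 19 each with medians of -0.13 and -0.03. Among the 33 genes with at least 10 tested peaks, the gene medians ran from -0.23 at Slc44a5 to 0.43 at Slc5a10, in which 10 of 12 peaks were positive. Slc24a6, the mitochondrial sodium-calcium exchanger gene, had a median of 0.29 over 11 peaks and Slc12a3, the thiazide-sensitive sodium-chloride cotransporter gene of the kidney, 0.33 over 12. Without P14 replicate 1 the medians were -0.07 at Slc44a5, 0.25 at Slc5a10, 0.25 at Slc24a6 and 0.11 at Slc12a3, and that of Slc9a9 was 0.09.

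Scaling changed how many Slc peaks were called and in which direction. Scaled to the reads between peaks, which put all peaks at a median log2 change of 1.18, 141 of 1372 Slc peaks were higher at P14 (10.3%, against 7.5% of all peaks) and 0 lower (against 0.0527%). Relative to that shift the Slc median of 1.23 was 0.05 higher. Slc38a10 and Slc8a2 were among the 141. Leaving P14 replicate 1 out of the fit to the whole table gave 4 Slc peaks called higher, against 0.122% of regions. They lay at Slc38a10 (2 peaks), Slc11a2 and Slc19a1, the reduced folate carrier gene. Without both replicates 1 that fit called 47 Slc peaks higher and 0 lower, against 1.19% and 2.51% of all regions, with peaks and the stretches between them counted together.

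Genes that work with solute carriers were counted in the same way. Organic anion transporters of the Slco series, sodium pump subunits, chaperones of lactate carriers, kinases that control cation-chloride cotransport and scaffold proteins had 135 tested peaks in 26 genes, of which 0 were higher and 2 lower (1.48%, against 2.46% of all peaks). The lower ones were at Stk39, a kinase that activates Slc12a2, with 44, 27 and 33 reads and then 17, 21 and 21 (log2 change -1.81, SE 0.38, edgeR adjusted p = 0.0252), and at Slco1a4 (log2 change -1.71, SE 0.46, adjusted p = 0.0495). The median of the 135 was 0.02. Peaks at 8 cardiomyocyte marker genes had 0 higher and 10 lower calls among 70 (14.3%, against 2.46% of all peaks lower). Their CPM values did not overlap between ages in 10 peaks higher at P14 (14.3%, against 4.72% of all peaks) and 18 lower (25.7%, against 7.14%). Peaks at 5 endothelial, 3 fibroblast and 1 blood marker genes had 0 calls among 24, 14 and 1. Captured DNA at marker genes does not count cells, so changes in the mix of cells were not tested.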

How the data were processed

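The authors deposited raw read counts, as whole numbers, for each region in 6 libraries. BWA, MACS, bedtools and edgeR (3.2.4) are named, along with GRCm38, in the submitters' processing notes, which give them no roles. How peaks were called, how duplicates were treated and whether libraries were pooled is not given in the sources used here. From 221524 lines came 213957 distinct regions, none of which averaged fewer than 10 reads per library. Peaks (101255) and the stretches between them (112666) were inferred from touching borders, gene names and read density, since the table does not mark them. Density alone settled 17551 regions, and it gave the same answer for 94.6% of regions settled otherwise. Interval starts were taken as counted from 0 and are printed counted from 1.

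For the comparison of ages, edgeR 4.0.16 (R 4.3.3) ran its quasi-likelihood test on the deposited counts, with TMM factors, the default filter on whole-library totals, age alone in the design, and Benjamini-Hochberg adjustment over every tested peak or region. The method was tested on simulated data. Standard errors are the log2 change divided by the square root of F. DESeq2 1.42.0 was an alternative. Shares of reads were compared by exact permutation (SciPy 1.17.1). With 14 to 56 reads in the median Slc peak of a library, counting error is large. Named peaks were those called, the 6 highest and 6 lowest without overlap and above median abundance, the best peak of each of 24 chosen transporters (2 of them are not reported here), and the genes with most peaks. Members, lists and tests were chosen with earlier results of these data known.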

Additional observations from a re-analysis of the deposited data

How the results depend on the processing

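The count of 17 called Slc peaks within peaks ranged from 0 to 11 with 1 library left out, with 0 without P14 replicate 1 and 0 without P14 replicate 2. The 11 came without P1 replicate 3, where 21 of all 100386 peaks were called higher and 1611 lower. Without P14 replicate 1 or P14 replicate 2, 0 of all tested peaks passed. There were 59 of 1373 and 86 of 1396 Slc peaks with an unadjusted p under 0.05 in those fits. Among all peaks there were 6408 of 96893 and 7701 of 98845. The Slc count was 1 without both replicates 1, where 57 of all 93256 peaks were called higher and 438 lower. With no TMM factor it was 3, beside 75 higher and 705 lower of all 96773 peaks. It was 0 with the share of reads in peaks as a covariate, as for all peaks, and 141 scaled to the reads between peaks. It was 18 with DESeq2, 17 with no filter and 14 over gene-named regions. Those fits called 90 higher and 2614 lower of 89268 peaks, 114 and 2652 of 101255, and 100 and 1349 of 66050. With the replicate block the Slc count was 0, as was the count of all peaks, and over all regions it was 0. Deviations of libraries with the same number correlated at -0.05, -0.05 and 0.02 across ages, and those with different numbers at -0.04 to 0.07. With 3 libraries per age this cannot tell whether the numbers pair the libraries, and the labels do not say. Over all regions the count of 0 became 0 to 4 with 1 library left out and 47 without both replicates 1. All 47 were higher at P14, where 1.19% of all regions were called higher and 2.51% lower. The share of peak reads in Slc peaks stayed higher at P14, by 0.0996 to 0.213 percentage points with 1 library left out.

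Some named peaks that were not called changed sign. Scaled to the reads between peaks, the log2 change became 0.55 at Slc15a1, 0.65 at Slc30a7, 0.63 at Slc28a3, 0.69 at Slc38a10 (the lower peak), 0.69 at Slc11a1, 0.71 at Slc1a3, 0.81 at Slc38a2, 0.96 at Slc4a3, 0.97 at Slc7a5, 0.98 at Slc25a3, 1.07 at Slc25a20, 0.98 at Slc29a1, 1.02 at Slc40a1 and 1.11 at Slc3a2. That scaling raises all peaks by construction. With no TMM factor Slc40a1 had 0.023 and Slc3a2 0.10, and with the covariate Slc40a1 had 0.20 and Slc3a2 0.018. Without both replicates 1 Slc25a3 had 0.033. With 1 library left out, the log2 change ran from -0.41 to 0.058 at Slc29a1, from -0.35 to 0.10 at Slc40a1 and from -0.28 to 0.12 at Slc3a2.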
